A study of Mus musculus with 45 samples.

Results

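The platelet-derived growth factors and their receptors were followed through the layers of the mouse embryonic face. The set was given as a list of 5 genes, the ligand genes Pdgfa, Pdgfb and Pdgfc and the receptor genes Pdgfra and Pdgfrb, and 5 of 5 were found by symbol among the 9626 probe sets of the authors' deposited model table. Each gene had 1 probe set: 10535043 for Pdgfa, 10430660 for Pdgfb, 10492689 for Pdgfc, 10522503 for Pdgfra and 10456046 for Pdgfrb.

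RNA had been hybridized to 45 Affymetrix Mouse Gene 1.0 ST arrays, which fall into 15 groups of 3. All groups came from inbred wild-type C57BL6/J embryos, without a transgene or a treatment, and the labels of the groups differ in layer, prominence and embryonic day. Frontonasal, maxillary and mandibular tissue of both layers, ectoderm and mesenchyme, was sampled at E11.5 and E12.5, while E10.5 was sampled as frontonasal mesenchyme, mandibular mesenchyme and mandibular ectoderm. Each array holds tissue pooled from several embryos after the layers had been peeled apart with the enzyme Dispase II, so the spread between arrays is a spread between pools and not between single embryos.

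The ligands are secreted as dimers that bind and pair receptor tyrosine kinases on neighbouring cells. Ligands made from Pdgfa and Pdgfc act mainly through the receptor encoded by Pdgfra, whereas the product of Pdgfb binds both receptors and is best known for drawing pericytes to vessels through the product of Pdgfrb. In the face, ligand made by the surface epithelium signals to mesenchyme derived from the neural crest, and mouse embryos without Pdgfra or Pdgfc develop clefts.

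Start-site windows of the ligands Pdgfa and Pdgfc, both higher in ectoderm below, and of the receptor Pdgfra, higher in mesenchyme, are shown to set genes of opposite layer difference side by side. The sequences are RefSeq's for GRCm38.p6, matched by symbol, and span an annotated start site, most of each lying before it. RefSeq's table holds 2 windows for Pdgfa, of which the one farther upstream on the gene's strand is printed. It lies at chr5:138994895-138995194 on the minus strand, the Pdgfc window at chr3:81036166-81036465 on the plus strand and the Pdgfra window at chr5:75152001-75152300 on the plus strand. Capitals mark matches to GGGCGG, the GC box of Sp factors, or to CANNTG, the E box of basic helix-loop-helix factors, on either strand.
Pdgfa: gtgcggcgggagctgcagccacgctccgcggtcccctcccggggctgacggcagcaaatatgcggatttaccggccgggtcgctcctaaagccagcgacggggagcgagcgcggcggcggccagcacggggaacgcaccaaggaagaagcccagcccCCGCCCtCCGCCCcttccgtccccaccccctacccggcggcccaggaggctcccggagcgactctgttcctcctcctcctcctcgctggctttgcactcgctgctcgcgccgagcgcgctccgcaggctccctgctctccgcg
Pdgfc: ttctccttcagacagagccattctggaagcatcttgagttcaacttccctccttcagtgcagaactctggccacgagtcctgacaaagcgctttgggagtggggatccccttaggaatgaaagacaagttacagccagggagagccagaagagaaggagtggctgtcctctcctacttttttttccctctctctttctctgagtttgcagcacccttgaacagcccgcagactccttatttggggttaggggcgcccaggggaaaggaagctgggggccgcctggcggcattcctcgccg
Pdgfra: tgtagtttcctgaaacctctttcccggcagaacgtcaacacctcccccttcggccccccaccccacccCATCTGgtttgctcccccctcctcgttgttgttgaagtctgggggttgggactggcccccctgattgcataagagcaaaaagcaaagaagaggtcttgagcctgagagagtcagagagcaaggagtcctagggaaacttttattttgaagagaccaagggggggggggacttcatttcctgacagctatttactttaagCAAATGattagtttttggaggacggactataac

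The windows differ in base composition. The printed Pdgfa window is 73.3% G or C and holds 37 CpG pairs, against 67% and 24 for the other Pdgfa window at chr5:138994232-138994531, 55% and 8 for Pdgfc, 51% and 5 for Pdgfra, and medians of 52.7% and 7 over 32851 windows of the same length. GGGCGG occurs in 2 places in the printed Pdgfa window, in 1 of the other Pdgfa window and in 0 of the Pdgfc and Pdgfra windows, and 35.7% of the windows hold it. CANNTG occurs in 2 places in the Pdgfra window and in 0 of the other 3, and 72.3% of the windows hold it. GCCNNNGGC, a site of AP-2 factors, which are active in facial ectoderm and crest, was not among the letters of these 4 windows, and 16.6% of the windows hold it.

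Each of the 5 genes was detected above background on 45 of 45 arrays at a detection p under 0.05, and Pdgfb on 42 at a detection p under 0.01. Detection alone says little, since 76.04% to 91.67% of all probe sets were detected on each array. The array medians were 5.97 to 6.22 log2 units. Pdgfb, at 5.6 to 6.71, lay near them. So did Pdgfra (6.21 to 6.7) and Pdgfrb (5.97 to 6.31) in mandibular ectoderm at E10.5, and folds from these levels start near the array median. The labelled layers were checked against 14 epithelial and 13 mesenchymal marker genes. The epithelial markers averaged 9.83 to 10.46 log2 units on the ectoderm arrays and 5.57 to 8.47 on the mesenchyme arrays, and the mesenchymal markers 6.36 to 8.36 and 8.57 to 10.23. Neither pair of ranges overlapped. Defining markers of each layer were still detected in the other, and the frontonasal mesenchyme stood apart with epithelial averages of 7.66 to 8.47, against 5.57 to 6.98 on the other mesenchyme arrays. In such bulk samples, fewer cells of a type and less RNA per cell cannot be told apart.

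Ectoderm and mesenchyme of the same prominence and day were compared over 7 combinations, 21 arrays against 21. Pdgfa and Pdgfc were higher in ectoderm, and Pdgfra, Pdgfrb and, by a smaller difference, Pdgfb were higher in mesenchyme. All 5 members passed an adjusted p of 0.05 in the limma fit, where 69.6% of the 14472 tested probe sets passed, so the count itself is near the background. The 2 ligands higher in ectoderm stand against 35.9% of probe sets called higher there, and the 3 genes lower in ectoderm against 33.7% called lower. By variance over the 45 arrays, Pdgfa, Pdgfc, Pdgfra and Pdgfrb ranked between 97.6% and 99.8% of the way up the 28944 probe sets with a value, and Pdgfb at 78.0%. All levels below are log2 signals and all differences are log2 differences with their standard error, unless a fold is named.

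Pdgfa, whose product forms a ligand of the alpha receptor, ranged from 10.14 to 10.97 with a median of 10.48 on the 21 ectoderm arrays. On the 24 mesenchyme arrays it ranged from 6.27 to 8.69 with a median of 7.69. The lowest ectoderm array thus lay 1.45 above the highest mesenchyme array. The difference over the 7 combinations was 2.88 ± 0.065, or 7.37-fold (limma adjusted p = 2.84e-30).

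Pdgfc, a ligand secreted in a latent form that proteases activate, ranged from 11.12 to 11.90 (median 11.48) in ectoderm and from 9.07 to 10.32 (median 9.87) in mesenchyme. The layers were again separate on every array, with a gap of 0.80. Ectoderm was higher by 1.67 ± 0.038, or 3.19-fold (limma adjusted p = 3.91e-30).

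Pdgfb, the ligand known from endothelium and platelets, was the exception among the ligands. Its signal was 5.6 to 6.51 (median 5.99) in ectoderm and 6.19 to 6.71 (median 6.49) in mesenchyme, so the layers overlapped by 0.32. Mesenchyme was 1.36-fold higher (difference of ectoderm minus mesenchyme -0.45 ± 0.056, limma adjusted p = 7.06e-09). The 14 endothelial markers, which include Cdh5 and Pecam1, averaged 5.25 to 6.42 on ectoderm arrays and 7.36 to 7.98 on mesenchyme arrays, and 5 platelet markers 5.26 to 5.96 and 5.83 to 6.74. Their part in the Pdgfb difference was not tested.

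Pdgfra, the alpha receptor, ran from 6.21 to 9.21 (median 8.09) in ectoderm and from 10.16 to 11.72 (median 11.12) in mesenchyme. It was 9.08-fold higher in mesenchyme (-3.18 ± 0.12, limma adjusted p = 1.09e-23), and the highest ectoderm array lay 0.95 below the lowest mesenchyme array. Pdgfrb, the beta receptor, ran from 5.97 to 8.50 (median 7.30) in ectoderm, while its mesenchyme arrays started at 9.25 and spanned 1.25 (median 10). It was 6.79-fold higher in mesenchyme (-2.76 ± 0.10, limma adjusted p = 7.66e-24), with a gap of 0.75 between the layers.

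**Figure D1:**
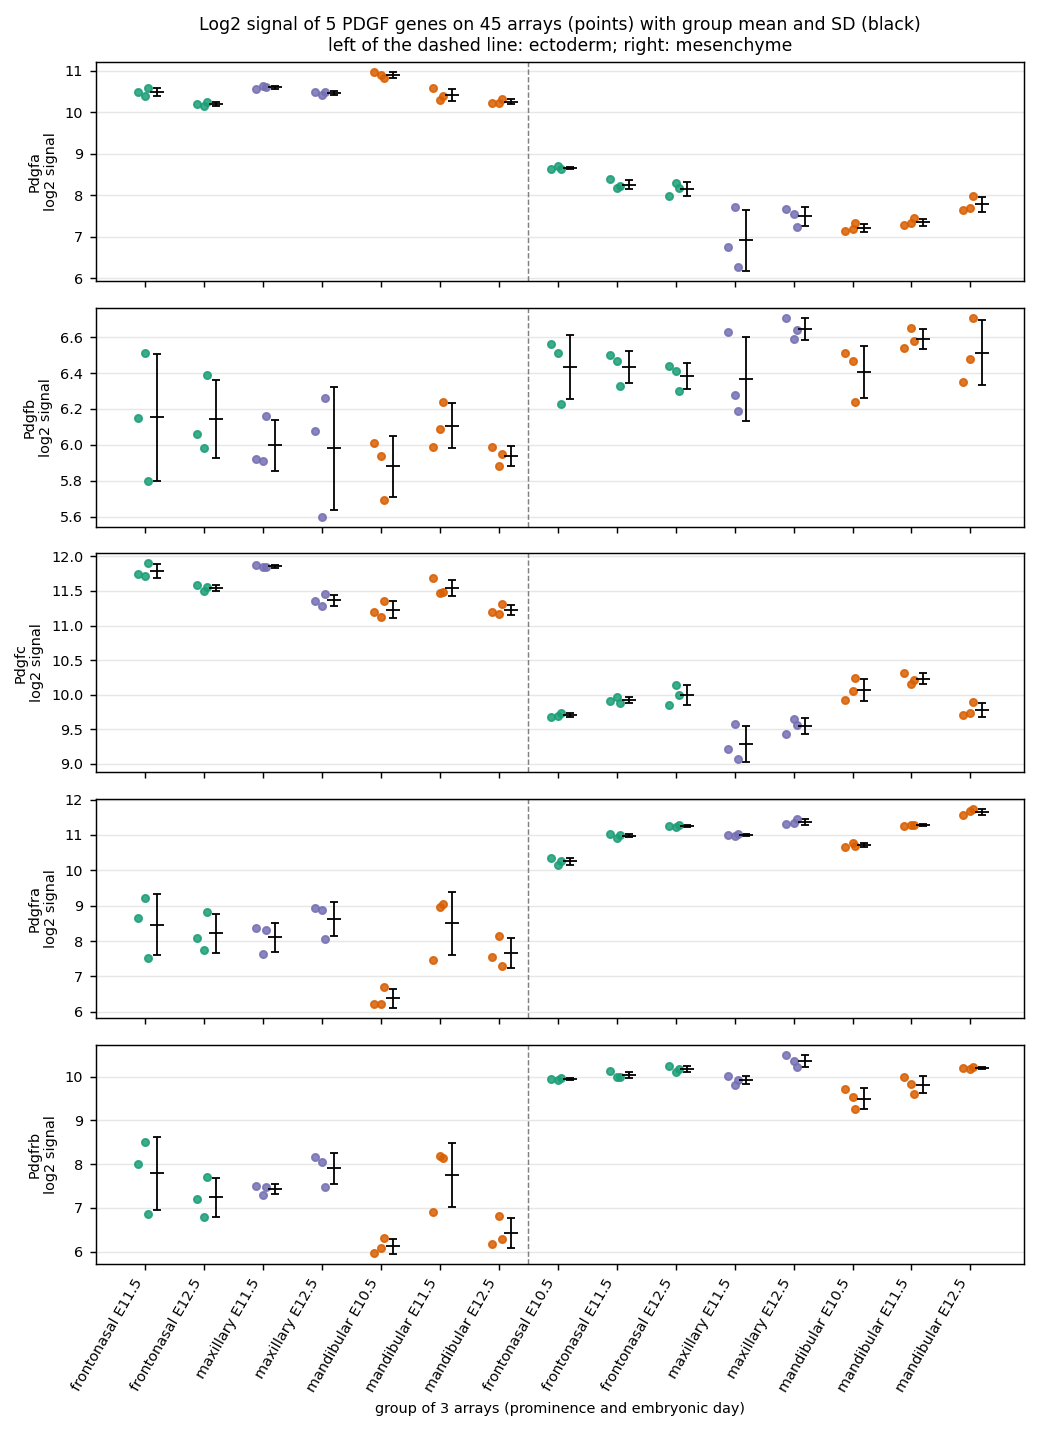
Log2 signal (y axis, a scale of its own for each gene) of Pdgfa, Pdgfb, Pdgfc, Pdgfra and Pdgfrb on the arrays of 15 groups (x axis: prominence and embryonic day, ectoderm left and mesenchyme right of the dashed line), with points for arrays in the colour of the prominence and black bars for the group mean and SD (n = 3). Pdgfa and Pdgfc sit higher in every ectoderm group, both receptors sit higher in every mesenchyme group, and Pdgfb overlaps between the layers.

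The size of the layer difference varied with prominence and day, while its direction held in 7 of 7 combinations for each gene. The share of tested probe sets called at E11.5 was 36% in frontonasal, 36.9% in mandibular and 40.2% in maxillary tissue, at E12.5 it was 48.1%, 46.5% and 42.2%, and in mandibular tissue at E10.5 it was 39.8%. Pdgfa differed most in maxillary tissue at E11.5, by 3.69 ± 0.17 or 12.9-fold, and in mandibular tissue at E10.5, by 3.68 ± 0.17 or 12.8-fold. It differed least in frontonasal tissue at E12.5, by 2.05 ± 0.17 or 4.13-fold. Pdgfc ranged from 1.15 ± 0.10 or 2.22-fold in mandibular tissue at E10.5 to 2.57 ± 0.10 or 5.92-fold in maxillary tissue at E11.5. The ligands therefore did not order the combinations alike. For Pdgfra the smallest difference was 5.74-fold in frontonasal tissue at E11.5 and the largest 20.1-fold in mandibular tissue at E10.5. Pdgfrb ran from 4.19-fold in mandibular tissue at E11.5 to 13.6-fold in mandibular tissue at E12.5. Pdgfb passed the threshold in 5 of the 7 combinations, and the frontonasal pairs at E11.5 and at E12.5 were the others.

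**Figure D2:**
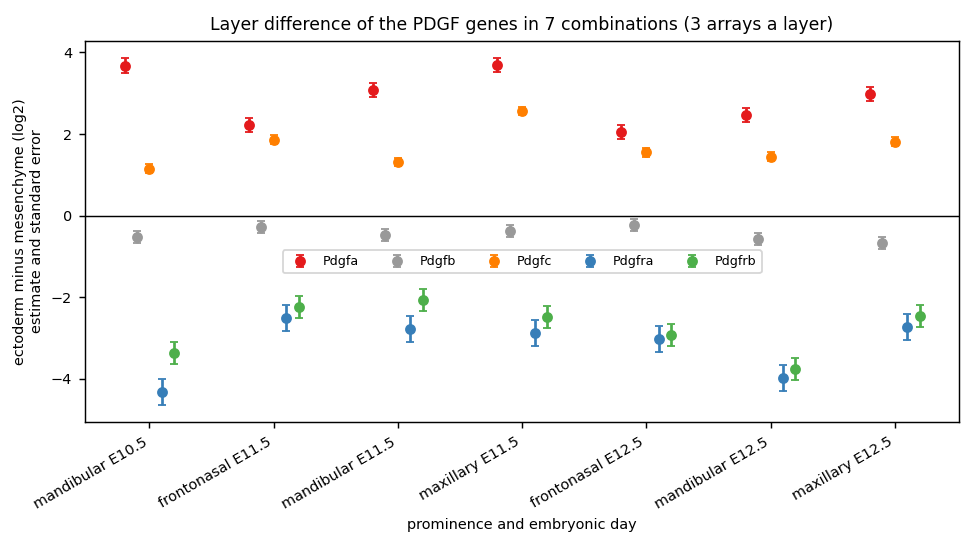
Difference of ectoderm minus mesenchyme (y axis, log2) for each PDGF gene in the 7 combinations of prominence and embryonic day that hold both layers (x axis), with points for the limma estimate from 3 arrays a layer and bars for its standard error. Pdgfa and Pdgfc are above 0, and Pdgfra, Pdgfrb and Pdgfb below 0, in each combination.

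Whether the layer difference itself depended on the prominence was tested as an interaction over E11.5 and E12.5. Pdgfa and Pdgfc passed in each of the 3 pairs of prominences, 2 of 5 members each time. The background was 18.5% for frontonasal against mandibular, 6.68% for maxillary against mandibular and 11.6% for frontonasal against maxillary tissue. For Pdgfa the frontonasal layer difference was smaller than the mandibular one by 0.64 ± 0.17 (interaction -0.64, limma adjusted p = 0.00738) and smaller than the maxillary one by 1.19 ± 0.17 (interaction -1.19, limma adjusted p = 3.48e-06). The maxillary difference exceeded the mandibular one by 0.56 ± 0.17 (limma adjusted p = 0.0425), a call that was lost in 6 of 10 other settings, among them the fit with the replicate number as a block (adjusted p = 0.0501), and without any 1 of 17 arrays (0.40 to 0.57). For Pdgfc the maxillary layer difference was the largest, exceeding the mandibular one by 0.81 ± 0.10 (limma adjusted p = 2.57e-07) and the frontonasal one by 0.48 ± 0.10 (interaction of frontonasal against maxillary -0.48, limma adjusted p = 0.000796). The frontonasal difference of Pdgfc exceeded the mandibular one by 0.33 ± 0.10 (limma adjusted p = 0.0195; 0.25 and adjusted p = 0.104 with arrays centred on their medians).

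Prominences were then compared within the mesenchyme, over E11.5 and E12.5 with 6 arrays each. Pdgfa was highest in the frontonasal prominence and Pdgfc lowest in the maxillary prominence. Pdgfa alone of the members passed between frontonasal and mandibular mesenchyme (background 20.3%), Pdgfc alone between maxillary and mandibular (9.98%), and both between frontonasal and maxillary (18.8%). Between maxillary and mandibular mesenchyme Pdgfa, at -0.36, narrowly did not pass (limma adjusted p = 0.0542), and it passed in 4 of 11 other settings.

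In frontonasal mesenchyme Pdgfa measured 8.64, 8.69 and 8.64 at E10.5, 8.38, 8.17 and 8.21 at E11.5, and 7.97, 8.29 and 8.18 at E12.5. In mandibular mesenchyme it measured 7.14, 7.18 and 7.32 at E10.5, 7.27, 7.32 and 7.44 at E11.5, and 7.64, 7.70 and 7.99 at E12.5. In maxillary mesenchyme it measured 6.75, 7.71 and 6.27 at E11.5 and 7.67, 7.55 and 7.24 at E12.5. Frontonasal arrays lay above the other prominences on each day except that 1 of them, at 7.97, fell within the mandibular range at E12.5. The maxillary group at E11.5 had the widest spread of any Pdgfa group (SD 0.73), set by 1 array at 7.71. Pdgfa was 1.56-fold higher in frontonasal than mandibular mesenchyme (0.64 ± 0.12, limma adjusted p = 8.93e-05) and 2.00-fold higher than in maxillary mesenchyme (1.00 ± 0.12, limma adjusted p = 3.75e-08). At E10.5, outside that mean, the frontonasal excess over mandibular mesenchyme was 2.72-fold (1.44 ± 0.17, limma adjusted p = 4.03e-08, background 24.2%).

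Epithelial marker signal was also higher in frontonasal mesenchyme, and its group means by day are given beside the Pdgfa difference. The frontonasal minus mandibular difference of Pdgfa was 1.44 at E10.5, 0.91 at E11.5 and 0.37 at E12.5. On these days the epithelial group means were 7.803, 7.674 and 8.415 in frontonasal mesenchyme. In mandibular mesenchyme they were 5.904, 5.909 and 6.501. The 14 epithelial markers, of which 14 were detected, averaged 7.66 to 8.47 on frontonasal, 5.57 to 6.98 on maxillary and 5.61 to 6.66 on mandibular mesenchyme arrays. The maxillary array with the highest Pdgfa of its E11.5 group also had the highest epithelial average, 6.98 against 5.57 and 5.86 for the other 2. With the epithelial average of each array as a covariate, chosen after seeing the data, the frontonasal minus mandibular difference was -0.56 ± 0.26 (limma adjusted p = 0.336) and the frontonasal minus maxillary difference -0.20 ± 0.26 (limma adjusted p = 0.907), against a standard error of 0.15 without the covariate on the same arrays. The covariate nearly coincides with prominence. Of its variation over the 24 mesenchyme arrays, 91.4% lay between groups and 83.8% between frontonasal and other arrays, whose ranges did not overlap, and 87.9% of the rest lay within the 6 maxillary arrays. An effect of prominence and one of the marker level therefore cannot be told apart by this fit. Neuronal markers were also higher in frontonasal (6.74 to 7.55) than mandibular mesenchyme (5.10 to 6.43), and skeletal muscle markers were higher in mandibular (5.58 to 8.58) than frontonasal mesenchyme (5.07 to 5.51). Their part in the result was not tested.

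Pdgfc measured 9.21, 9.58 and 9.07 in maxillary mesenchyme at E11.5 and 9.43, 9.65 and 9.57 at E12.5. The mandibular values were 10.32, 10.16 and 10.22 at E11.5 and 9.71, 9.74 and 9.89 at E12.5, and the frontonasal values 9.91, 9.97 and 9.88, then 9.85, 10.14 and 10. The maxillary arrays were the lowest on both days and overlapped neither other prominence. Pdgfc was 1.504-fold lower in maxillary than mandibular mesenchyme (-0.59 ± 0.072, limma adjusted p = 7.46e-08) and 1.45-fold lower than in frontonasal mesenchyme (0.54 ± 0.072 as frontonasal minus maxillary, limma adjusted p = 2.11e-07). With the epithelial covariate the first difference kept its direction and its call, and the second was -0.045 ± 0.15 (limma adjusted p = 0.974), with the same overlap of covariate and frontonasal prominence as for Pdgfa.

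The receptors had narrow replicate ranges in mesenchyme. Pdgfra measured 11.25, 11.29 and 11.29 in mandibular mesenchyme at E11.5, 11.02, 10.92 and 11 in frontonasal, and 10.99, 10.98 and 11.02 in maxillary. At E12.5 it measured 11.56, 11.67 and 11.72, then 11.26, 11.21 and 11.28, then 11.30, 11.34 and 11.46, in the same order. The mandibular arrays were thus the highest on both days, without overlap. The differences of -0.35 ± 0.22 for frontonasal and -0.28 ± 0.22 for maxillary minus mandibular mesenchyme did not pass (limma adjusted p = 0.359 and 0.654) in the fit to all arrays, whose spread is shared with ectoderm. The median SD of a Pdgfra group was 0.49 in ectoderm and 0.057 in mesenchyme, and with only the groups compared in the fit both passed (limma adjusted p = 0.000154 and 0.00614). Pdgfrb did not pass between mesenchyme prominences, with differences of -0.03 to 0.13.

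Within the ectoderm, 1 member passed in 1 of 3 pairs of prominences. Pdgfc was 1.21-fold higher in frontonasal than mandibular ectoderm (0.28 ± 0.072, limma adjusted p = 0.00503, background 23.1%), a call that was lost with arrays centred on their medians (0.19, adjusted p = 0.0718) and with only the groups compared (adjusted p = 0.0514). Its frontonasal values were 11.74, 11.71 and 11.90 at E11.5 and a mean of 11.55 ± 0.04 (SD, n = 3) at E12.5, and the mandibular values 11.68, 11.47 and 11.48, then 11.20, 11.17 and 11.31. The groups did not overlap on either day. Between maxillary and mandibular ectoderm (background 5.04%) and between frontonasal and maxillary ectoderm (9.24%) 0 members passed. At E12.5 alone, Pdgfrb was 2.78-fold higher in maxillary than mandibular ectoderm (1.47 ± 0.27, limma adjusted p = 0.000327, background 5.55%). The mesenchymal markers averaged 7.82 to 8.36 on those maxillary and 7.11 to 7.69 on those mandibular arrays, and with their average as a covariate, chosen after seeing the data, the difference was 0.28 ± 0.18 (limma adjusted p = 1.00).

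Ages were compared within a layer. In mesenchyme from E10.5 to E11.5 Pdgfra rose 1.57-fold (0.65 ± 0.22, limma adjusted p = 0.0274), the 1 member called against a background of 26.1%. It went from 10.36, 10.16 and 10.25 to the E11.5 values above in frontonasal mesenchyme and from 10.65, 10.77 and 10.70 in mandibular mesenchyme, without overlap in either. The Pdgfra call was lost in 1 of 11 other settings, without the frontonasal groups (0.57, adjusted p = 0.170). It was also lost in 1 of 45 fits without 1 array, the frontonasal E10.5 array at 10.16 (0.62, adjusted p = 0.0557). On mesenchyme arrays alone the standard error of this step was 0.053. Pdgfc, at 0.19, narrowly did not pass over the same step (limma adjusted p = 0.0518), and it passed in 6 of 11 other settings. From E11.5 to E12.5 Pdgfra differed by 0.34 ± 0.18 (limma adjusted p = 0.154) and Pdgfrb by 0.32 ± 0.16 (limma adjusted p = 0.116), and both passed with only the groups compared (limma adjusted p = 5.28e-06 and 0.000235). Over these days the mesenchymal markers also went up in the mesenchyme, from group averages of 8.66 and 8.80 at E10.5 to between 9.50 and 10.20 at E12.5.

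Pdgfa was the 1 member called between E11.5 and E12.5 in mesenchyme, where the background was 36.7%. It rose 1.23-fold (0.30 ± 0.10, limma adjusted p = 0.0157), a call that was lost with only the groups compared (adjusted p = 0.0871). By prominence the step was 0.58 ± 0.17 in maxillary mesenchyme (limma adjusted p = 0.0127, background 24.3%), while it did not pass in frontonasal (background 15.6%) or mandibular mesenchyme. The group mean fell from 8.25 to 8.15 in frontonasal mesenchyme and rose from 7.34 to 7.78 in mandibular mesenchyme. The call of the mean step was also lost without the maxillary E11.5 array at 6.27 (0.19, adjusted p = 0.0671), while the mean step was 0.43 without the array at 7.71 of the same group. With the epithelial average as a covariate the step was -0.014 ± 0.10 (limma adjusted p = 0.941).

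Pdgfc took different courses by prominence over the same interval, with no change called in the mean (-0.04 ± 0.059, limma adjusted p = 0.687). It fell 1.37-fold in mandibular mesenchyme (-0.45 ± 0.10, limma adjusted p = 0.00105, background 19.4%), from 10.32, 10.16 and 10.22 to 9.71, 9.74 and 9.89, without overlap. The step in maxillary mesenchyme exceeded the mandibular one by 0.72 ± 0.14 (limma adjusted p = 0.00197, 1 of 5 members, background 2.54%) and that in frontonasal mesenchyme by 0.53 ± 0.14 (limma adjusted p = 0.0312, 1 of 5, background 2.89%). These interactions of age with prominence were added after seeing the data. The second was lost with arrays centred on their medians (0.51, adjusted p = 0.0744) and without any 1 of 8 arrays (0.46 to 0.54).

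In ectoderm the receptors moved most between E10.5 and E11.5, an interval sampled in the mandibular prominence alone, with 3 of 5 members called against a background of 18.4%. Pdgfra measured 6.21, 6.23 and 6.70 at E10.5 and 7.47, 8.97 and 9.05 at E11.5. Pdgfrb measured 5.97, 6.09 and 6.31, then 6.91, 8.19 and 8.15. Neither gene overlapped between the days, and in both the same E11.5 array was the lowest. Pdgfra rose 4.34-fold (2.12 ± 0.31, limma adjusted p = 4.35e-06) and Pdgfrb 3.09-fold (1.63 ± 0.27, limma adjusted p = 2.46e-05). These standard errors share the narrower spread of the mesenchyme arrays, and on ectoderm arrays alone they were 0.43 for Pdgfra and 0.36 for Pdgfrb. The 13 mesenchymal markers, of which 12 and 13 were detected in the E10.5 and E11.5 groups, went from 6.36 to 6.76 at E10.5 to 7.32 to 8.32 at E11.5. With their average as a covariate, chosen after seeing the data, the steps were -0.29 ± 0.25 for Pdgfra (limma adjusted p = 0.575) and -0.34 ± 0.24 for Pdgfrb (limma adjusted p = 0.491). The marker averages of the 2 days did not overlap, and 77.6% of their variation over the 21 ectoderm arrays lay between groups, so day and marker level cannot be told apart here.

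Pdgfc also rose in mandibular ectoderm from E10.5 to E11.5, by 0.32 ± 0.10 (limma adjusted p = 0.0246; 0.0777 with only the groups compared). The call was also lost without any 1 of 3 arrays, those at 11.20 and 11.12 at E10.5 and at 11.68 at E11.5 (0.25 to 0.30). It measured 11.20, 11.12 and 11.36 at E10.5, and the E11.5 values, 11.68, 11.47 and 11.48, did not overlap these. Pdgfa measured 10.97, 10.89 and 10.82, then 10.58, 10.30 and 10.38, lower on each E11.5 array. The step of -0.47 ± 0.17 narrowly did not pass in the fit to all arrays (limma adjusted p = 0.0520). It passed in 5 of 11 other settings, among them the fit to only the groups compared (limma adjusted p = 0.0192).

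From E11.5 to E12.5 in ectoderm, 2 members were called against a background of 28.7%. Pdgfc fell 1.27-fold (-0.35 ± 0.059, limma adjusted p = 1.21e-05), and maxillary ectoderm had the largest step, from 11.88, 11.84 and 11.84 to 11.36, 11.28 and 11.45 (-0.49 ± 0.10, limma adjusted p = 0.000800, background 10.6%). Pdgfrb fell 1.38-fold (-0.47 ± 0.16, limma adjusted p = 0.0214), a call that was lost with only the groups compared (adjusted p = 0.157), without the frontonasal groups (-0.42, adjusted p = 0.0670) and without any 1 of 6 arrays (-0.42 to -0.35). Of the prominences, Pdgfrb passed in mandibular ectoderm alone, where it fell from 6.91, 8.19 and 8.15 to 6.18, 6.82 and 6.29 (-1.32 ± 0.27, limma adjusted p = 0.000500, background 12.6%), with the mesenchymal markers at 7.32 to 8.32 and then 7.11 to 7.69. The frontonasal step was -0.55 ± 0.27 (limma adjusted p = 0.160). In maxillary ectoderm Pdgfrb measured 7.5, 7.30 and 7.49, then 8.16, 8.06 and 7.49, a step of 0.47 ± 0.27 (limma adjusted p = 0.351). The maxillary step exceeded the mandibular one by 1.79 ± 0.38 (limma adjusted p = 0.00254, 1 of 5 members, background 3.09%), and by 0.57 with the mesenchymal covariate (limma adjusted p = 0.679). The call was also lost with only the groups compared (limma adjusted p = 0.0664).

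The layer difference changed with age between E11.5 and E12.5 for 3 of 5 members, against a background of 23.9%. The interaction, the ectoderm step minus the mesenchyme step, was -0.50 ± 0.14 for Pdgfa (limma adjusted p = 0.00718), -0.31 ± 0.083 for Pdgfc (limma adjusted p = 0.00473) and -0.78 ± 0.22 for Pdgfrb (limma adjusted p = 0.00730). In the mean over prominences, the ectodermal excess of both ligands was thus smaller at E12.5, and the mesenchymal excess of the beta receptor larger. By prominence, the excess of Pdgfa went from 2.23 to 2.05 in frontonasal, 3.08 to 2.47 in mandibular and 3.69 to 2.97 in maxillary tissue. That of Pdgfc went from 1.86 to 1.55 in frontonasal and 2.57 to 1.81 in maxillary tissue but from 1.31 to 1.45 in mandibular tissue. The ectoderm minus mesenchyme difference of Pdgfrb went from -2.25 to -2.93 in frontonasal and -2.07 to -3.77 in mandibular tissue but from -2.49 to -2.45 in maxillary tissue. The epithelial averages of the mesenchyme groups also went from 7.67 to 8.42 in frontonasal, 5.91 to 6.501 in mandibular and 6.14 to 6.25 in maxillary tissue. The mesenchymal averages of the ectoderm went from 7.81 to 7.76 in frontonasal, 7.94 to 7.31 in mandibular and 7.91 to 8.16 in maxillary tissue. The part of either marker set in these interactions was not tested.

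The level of a member in the layer where it was low was set against the markers of the other layer, array by array, as deviations from the group means. For Pdgfra in ectoderm and the mesenchymal markers, Pearson's r was 0.957 and Spearman's rho 0.928 over 21 arrays (permutation within groups, adjusted p = 0.00018 and 0.00036), and r was 0.925 without the 2 farthest arrays. For Pdgfrb these were 0.945, 0.921 (adjusted p = 0.0003 and 0.00045) and 0.906. The ectoderm arrays with more mesenchymal marker signal were therefore those with more receptor signal. For the ligands in mesenchyme and the epithelial markers over 24 arrays, Pdgfa had r 0.776 and rho 0.604 (adjusted permutation p = 0.0422 and 0.0243), with r 0.684 without the 2 farthest. Pdgfc had r 0.807 and rho 0.811 (adjusted permutation p = 0.00194 and 0.00126), with r 0.728 without them. Of the within-group variation of the epithelial markers, 87.9% lay in the 6 maxillary mesenchyme arrays, so r for both ligands rests largely on these. Pdgfb against the endothelial markers had r 0.625 and rho 0.613 in ectoderm (adjusted permutation p = 0.0153 and 0.0243; r 0.574 without the 2 farthest) and r -0.184 and rho -0.209 in mesenchyme (adjusted permutation p = 0.523 and 0.461; r -0.10). These 6 relations form 1 family, over which the p-values were adjusted, and the labels name no technical batch within which to repeat them.

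**Figure D3:**
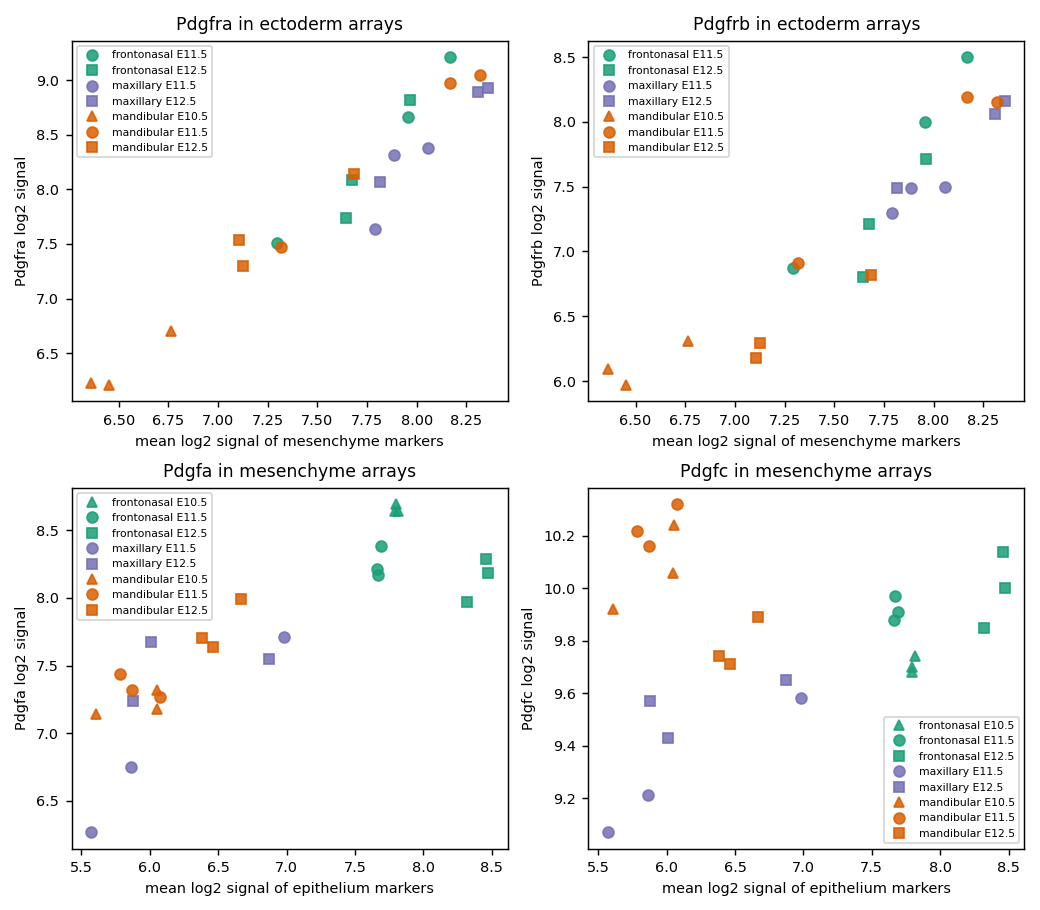
Log2 signal of a PDGF gene (y axis) against the mean log2 signal of the other layer's markers (x axis), a point for each array, for Pdgfra and Pdgfrb on 21 ectoderm arrays (top) and Pdgfa and Pdgfc on 24 mesenchyme arrays (bottom), coloured by prominence and shaped by embryonic day. Receptor signal in ectoderm climbs with the mesenchymal markers from the mandibular E10.5 arrays upward, and the frontonasal mesenchyme sits at the right with epithelial averages of 7.66 to 8.47.

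An additive model of layer, prominence and age, fitted to all tested probe sets with limma's moderated F, called layer for 5 of 5 members (background 67.2%), prominence for Pdgfa alone (22.2%) and age for Pdgfra and Pdgfrb (49.8%). The authors' deposited table, made with a model that also holds the interactions, gave q-values for layer from 3.01e-28 for Pdgfa to 1.08e-08 for Pdgfb. Its other terms differed in part from these calls. In the authors' deposited table prominence had q = 0.0131 for Pdgfa, 0.0114 for Pdgfc and 0.00171 for Pdgfrb (41.1% of its probe sets under 0.05), and age had q = 0.0142 for Pdgfra and 0.0358 for Pdgfc but 0.562 for Pdgfrb (60.2% under 0.05). The interaction of age and layer in the authors' deposited table had q = 8.8e-05 for Pdgfa but 0.603 for Pdgfc and 0.699 for Pdgfrb (40.4% under 0.05), while the interaction tested above passed for all 3. How the terms of that table were coded is not given in the sources used here, and the models differ. In the authors' deposited table the interaction of prominence and layer had q = 3.93e-06 for Pdgfa and 9.97e-07 for Pdgfc, with 25.0% of its probe sets under 0.05. The q-value of all 3 factors together in the authors' deposited table was 0.00205 for Pdgfc (16.1% under 0.05) and above 0.05 for the other 4 members.

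Ordering the 15 group means showed how finely each gene separated the groups. Pdgfa had its highest mean in mandibular ectoderm at E10.5 (10.89 ± 0.08 SD, n = 3) and its lowest in maxillary mesenchyme at E11.5 (6.91 ± 0.73), and 3 of 14 neighbouring groups did not overlap. Pdgfc ran from 11.85 ± 0.02 in maxillary ectoderm at E11.5 to 9.29 ± 0.26 in maxillary mesenchyme at E11.5, so the same prominence and day held both its extremes, and 4 of 14 neighbours did not overlap. Pdgfra ran from 11.65 ± 0.08 in mandibular mesenchyme at E12.5 to 6.38 ± 0.28 in mandibular ectoderm at E10.5, with 7 of 14 neighbours apart, 6 of them at the mesenchymal end and at its border with ectoderm. Pdgfrb ran from 10.36 ± 0.14 in maxillary mesenchyme at E12.5 to 6.12 ± 0.17 in mandibular ectoderm at E10.5, with 3 of 14 apart. For Pdgfb 0 of 14 neighbours were apart, and its means spanned 5.88 ± 0.17 in mandibular ectoderm at E10.5 to 6.65 ± 0.06 in maxillary mesenchyme at E12.5.

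Genes that process, present or bind the ligands were divided between the layers. Of 13 listed, 11 were in the model table and tested, and 4 were higher in ectoderm, 6 lower and 1 not called (35.9% higher and 33.7% lower of all tested), with a median difference of -0.23 against 0.03 for all tested probe sets. Here and in each list below, genes came only from the authors' model table. In that model, 77.3% of its 9626 probe sets had a layer q under 0.05. The shares beside the lists are over 14472 tested probe sets, a different and larger set, of which 69.6% were called by layer. St14, a membrane serine protease, was higher in ectoderm by 3.07 ± 0.057. Nrp1, a co-receptor of vessel growth factors, was lower there by a difference of -2.76 ± 0.086. The plasminogen activators Plat, which activates the Pdgfc product, and Plau were also lower in ectoderm (-1.05 ± 0.057 and -0.91 ± 0.048), whereas Pdgfd, the remaining ligand gene of the family and no member of the set, was higher (0.80 ± 0.051). From E11.5 to E12.5 in mesenchyme 8 of the 11 rose and 0 fell (19.4% and 17.3% of all tested; median 0.44, all tested 0.02), led by Sparc, a matrix protein that binds the Pdgfb product (0.79 ± 0.04), Lrp1, an endocytic receptor (0.70 ± 0.08), and Pdgfrl, a receptor-like gene (0.69 ± 0.08). The same step in ectoderm had 2 rises and 3 falls (11.9% and 16.8% of all tested), with Plat lower by a difference of -1.03 ± 0.09.

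In frontonasal against mandibular mesenchyme, where Pdgfa was higher, 5 of these 11 were higher and 3 lower (11.8% and 8.48% of all tested). St14 was higher by 1.59 ± 0.11 and Plat by 0.61 ± 0.11, and Nrp1 was lower (-0.89 ± 0.16). St14 is an epithelial gene in these arrays, and the epithelial markers stood higher in frontonasal mesenchyme by the averages given above.

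Signal carriers downstream of the receptors were divided between the layers. Of 38 listed receptor partners, adaptors and enzymes, 17 were in the model table and tested, with 7 higher in ectoderm, 8 lower and 2 not called (35.9% higher and 33.7% lower of all tested; median -0.05, all tested 0.03). These shares are again over all tested probe sets and not over the model table alone. The phosphoinositide kinase subunit Pik3cb (1.67 ± 0.049), Hras (1.45 ± 0.036), the regulatory subunit Pik3r1 (0.79 ± 0.051) and the docking protein Gab1 (0.69 ± 0.032) were higher in ectoderm, and the adaptor Shc1 was lower (-0.82 ± 0.051). From E10.5 to E11.5 in mesenchyme 6 of the 17 rose and 3 fell (14.8% and 11.3% of all tested), with Pik3r1 at 0.91 ± 0.10 and Plcg2, a phospholipase, at -0.81 ± 0.08.

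Of 13 genes listed as attenuators of receptor signalling, 10 were tested, with 4 higher in ectoderm, 5 lower and 1 not called (35.9% higher and 33.7% lower of all tested; median -0.10, all tested 0.03). Grb7, an adaptor, was higher in ectoderm by 2.70 ± 0.060. The Sprouty genes, inhibitors of receptor kinase signalling, were split, with Spry2 (1.08 ± 0.043) and Spry1 (0.71 ± 0.049) higher in ectoderm and Spry4 lower (-0.49 ± 0.050). Cblc, a ubiquitin ligase, was higher (0.98 ± 0.050), and the receptor phosphatase gene Ptprj was lower (-0.66 ± 0.038).

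The structurally related VEGF ligands and receptors and class III receptor kinases formed the last list. Of 15 listed, 11 were tested, with 3 higher in ectoderm, 7 lower and 1 not called (35.9% higher and 33.7% lower of all tested; median -1.0, all tested 0.03). The VEGF receptor genes Kdr (-3.21 ± 0.10), Flt4 (-1.35 ± 0.076) and Flt1 (-1.25 ± 0.042) and the ligand gene Vegfd (-1.46 ± 0.075) were lower in ectoderm, and Kdr and Flt1 also stand among the endothelial markers. Kitl, the ligand of the receptor Kit, was higher in ectoderm by 1.49 ± 0.042, as was Kit itself by 0.73 ± 0.037. Pdgfa with Pdgfra thus had the ligand high in one layer and the receptor high in the other, whereas Kitl and Kit were both higher in ectoderm.

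**Figure D4:**
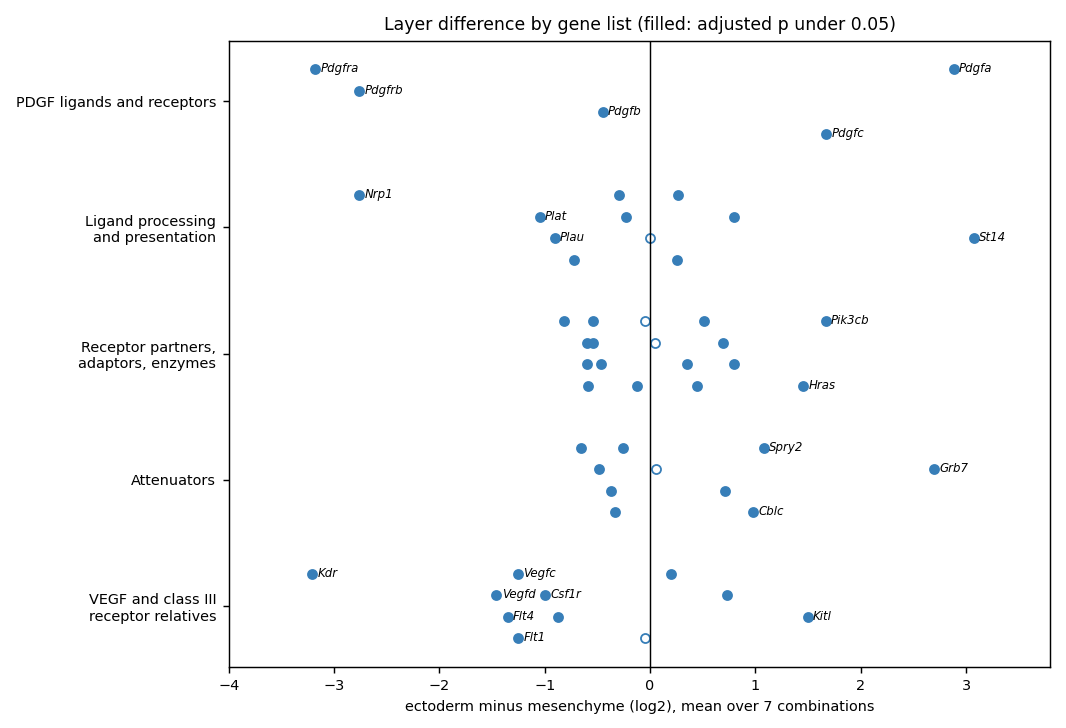
Difference of ectoderm minus mesenchyme over 7 combinations (x axis, log2) for the 5 PDGF genes and the tested genes of 4 lists (rows, spread vertically to separate points), filled where the limma adjusted p is under 0.05, with names where the difference exceeds about 1 log2 unit. Of the list genes, St14 and Grb7 have ectodermal differences near that of Pdgfa, and Kdr and Nrp1 mesenchymal differences near those of the receptors.

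For each member, the 5 other named genes most like it over the 15 group means were found among 8936 candidates by Pearson's r, as a description. Pdgfa was followed by Arhgap8 (r 0.991), Plekha7 (0.991), Itga3 (0.988), Lratd2 (0.988) and Bcam (0.987), and Pdgfc by Ppp1r36 (0.966), Fjx1 (0.965), Ifnlr1 (0.964), Mycl (0.963) and Kifc3 (0.961). Pdgfra was followed by Ednra (0.994), an endothelin receptor of crest mesenchyme, Ddr2 (0.994), a collagen receptor, Lix1l (0.993), Pecam1 (0.990) and Tmem255a (0.988). Pdgfrb shared Ddr2 (0.990), Lix1l (0.988) and Ednra (0.986) with it, beside Wipf1 (0.989) and Dnm1 (0.986). Pdgfb was followed by Arhgef40 (0.963), Sox7 (0.963), Adgrf5 (0.962), Rasip1 (0.961) and Cdh5 (0.960), of which Cdh5 is an endothelial cadherin and Sox7 and Rasip1 are known from endothelium. Since 2 layers set most of the variation, a high r chiefly restates which layer a gene is high in. Over the 45 arrays in place of the group means, 4 of the 5 genes stayed for Pdgfa, Pdgfra and Pdgfrb, 3 for Pdgfc and 0 for Pdgfb.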

How the data were processed

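The deposited values are log2 signals made with RMA in Affymetrix Power Tools 1.91, per the submitters' processing notes, which also name mm9. The authors' deposited model table gives Benjamini-Hochberg q-values of a three-way linear model for 9626 probe sets, and a deposited table gives a detection p-value for each probe set and array, with apt 1.8.0 named per the file headers. Symbols came from the model table.

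Here, 14472 of 28944 probe sets, those with a variance above the median, were fitted with limma 3.58.1 in R 4.3.3 as 15 group means. Contrasts weighted combinations equally, and the p-values of the moderated tests received a Benjamini-Hochberg adjustment across them all, a call needing an adjusted p under 0.05. The spread is thus shared by all 45 arrays. For Pdgfra and Pdgfrb this made standard errors smaller in ectoderm comparisons, and larger in mesenchyme comparisons, than in fits to that layer alone. In a simulation of the layer comparison, 99% of probe sets changed by 0.5 or 1 log2 unit, among 14472, were recovered. A further 10 unchanged probe sets were called. Each probe set was given the same spread on all arrays, and comparisons of fewer arrays and interactions were not simulated. The number of arrays limits the precision.

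The 5 members, the gene lists, the markers and the comparisons were chosen with earlier results of these data known. Named were all members, up to 5 genes of each list by size of the layer difference, up to 3 for other comparisons, and the 5 genes most like each member. Spry4 and Kit were named outside that rule, after their values were seen. Each array was left out in turn, and other settings tried were quantile normalization, centring of arrays, array weights, moderation with a trend and robust estimation, a filter on detection or none on variance, a replicate block, and a fit to the compared groups alone. Fits without the frontonasal groups, without the 3 arrays of lowest weight and with marker averages as covariates, and the interactions of age with prominence, were chosen after seeing the data.

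Replicate numbers were checked as pairs of layers. Over 21 pairs the correlations of deviations ran from -0.42 to 0.36 and 10 arrays matched their own number best, and the main fit holds no pairing. Relations to markers were tested by 100000 permutations within groups, two-sided. Python 3.11.15 with pandas 2.3.3, numpy 2.4.6, scipy 1.17.1 and matplotlib 3.10.9 was used.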

Additional observations from a re-analysis of the deposited data

Results flagged for a closer look

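In 12 cases an effect of 1 factor on a PDGF gene differed between the levels of another, by limma's test of that difference at an adjusted p under 0.05. The step from E11.5 to E12.5 was lower in ectoderm than in mesenchyme for Pdgfa (-0.502, SE 0.141, adjusted p = 0.00718), Pdgfc (-0.310, SE 0.083, adjusted p = 0.00473) and Pdgfrb (-0.781, SE 0.220, adjusted p = 0.00730). Marker averages of the other layer also moved between these days, and their part in these interactions was not tested.

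The layer difference of Pdgfa varied by prominence, with interactions of -0.635 for frontonasal against mandibular, 0.558 for maxillary against mandibular and -1.193 for frontonasal against maxillary tissue (adjusted p = 0.00738, 0.0425 and 3.48e-06). For Pdgfc these were 0.328, 0.812 and -0.483 (adjusted p = 0.0195, 2.57e-07 and 0.000796). Epithelial marker averages were 7.66 to 8.47 on frontonasal mesenchyme arrays and 5.57 to 6.98 on maxillary and mandibular ones, and their part in these interactions was not tested.

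The step of Pdgfc in mesenchyme from E11.5 to E12.5 was higher than the mandibular one by 0.530 in frontonasal and by 0.717 in maxillary tissue (adjusted p = 0.0312 and 0.00197). The step of Pdgfrb in ectoderm was higher in maxillary than mandibular tissue by 1.793 (adjusted p = 0.00254), while the mesenchymal marker averages went from 7.79 to 8.06 at E11.5 to 7.82 to 8.36 at E12.5 in maxillary ectoderm and from 7.32 to 8.32 to 7.11 to 7.69 in mandibular ectoderm.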

How the results depend on the processing

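The layer calls of the 5 genes held in 10 of 10 other settings and in each of 45 fits without 1 array. Of the differences called in the fit to all arrays, 271 of 296 recalculations under other settings kept direction and call, 19 lost the call and 6 turned sign. Those 6 were fits with marker averages as covariates, of whose variation 91.4% in mesenchyme and 77.6% in ectoderm lay between groups: Pdgfa in mesenchyme for frontonasal minus mandibular (-0.56), frontonasal minus maxillary (-0.20) and E11.5 to E12.5 (-0.014), Pdgfc for frontonasal minus maxillary mesenchyme (-0.045), and from E10.5 to E11.5 in ectoderm Pdgfra (-0.29) and Pdgfrb (-0.34). Among uncalled differences, Pdgfra between frontonasal and maxillary ectoderm was 0.028 after quantile normalization, 0.40 with the mesenchymal covariate and between -0.22 and 0.21 without 1 array. Pdgfc from E11.5 to E12.5 in mesenchyme was 0.021 after quantile normalization and between -0.074 and 0.011 without 1 array. With the mesenchymal covariate Pdgfrb was -0.0038 for maxillary against mandibular ectoderm and -0.046 for the age step in frontonasal against mandibular ectoderm, and Pdgfra was -0.14 for that step in maxillary against mandibular ectoderm. The cause was not tested.

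The number of members called moved as follows, with the number in the fit to all arrays in brackets. With only the groups compared it was 2 for frontonasal against mandibular (1) and for maxillary against mandibular mesenchyme (1), 2 for both mesenchymal age steps (1 and 1; from E11.5 to E12.5 these were Pdgfra and Pdgfrb, and Pdgfa was lost), 0 for frontonasal against mandibular ectoderm (1), 1 for the interaction of layer with maxillary against mandibular (2) and 0 for the age step in maxillary against mandibular ectoderm (1). Trended and robust moderation, array weights and the fit without the 3 arrays of lowest weight each gave 2 for maxillary against mandibular mesenchyme (1) and for E10.5 to E11.5 in mesenchyme (1), and 1, 2 and 2 for maxillary against mandibular ectoderm (0). Array weights gave 3 for E11.5 to E12.5 in mesenchyme (1), 1 for the age step in frontonasal against maxillary mesenchyme (0), 1 in frontonasal against mandibular ectoderm (0) and 2 in maxillary against mandibular ectoderm (1), and the fit without 3 arrays gave 2 for the last. Arrays centred on their medians gave 0 for frontonasal against mandibular ectoderm (1), 1 for each interaction of layer with a prominence against mandibular (2 and 2) and 0 for the age step in frontonasal against mandibular mesenchyme (1). Quantile normalization gave 1 for maxillary against mandibular ectoderm (0), 2 for E10.5 to E11.5 in mesenchyme (1) and 1 for E11.5 to E12.5 in ectoderm (2). No variance filter, the detection filter and the fit without the frontonasal groups each gave 1 for the interaction of layer with maxillary against mandibular (2), and the last also 1 for maxillary against mandibular ectoderm (0), 1 for E11.5 to E12.5 in ectoderm (2) and 0 for E10.5 to E11.5 in mesenchyme (1). With the mesenchymal covariate the counts were 1 for maxillary against mandibular ectoderm (0), 2 for frontonasal against maxillary ectoderm (0), 0 for E10.5 to E11.5 in ectoderm (3) and 0 for the age step in maxillary against mandibular ectoderm (1). With the epithelial covariate they were 3 for maxillary against mandibular mesenchyme (1), 0 for frontonasal against maxillary mesenchyme (2), 3 for E11.5 to E12.5 (1), 2 for E10.5 to E11.5 (1) and 1 for the age step in frontonasal against maxillary mesenchyme (0). The 3 from E11.5 to E12.5 were Pdgfc, Pdgfra and Pdgfrb, and Pdgfa was lost. In frontonasal against mandibular mesenchyme the number stayed, but Pdgfa was lost and Pdgfc called (-0.63, limma adjusted p = 0.0126). With only the groups compared, Pdgfa replaced Pdgfrb from E11.5 to E12.5 and Pdgfc from E10.5 to E11.5 in ectoderm, which left those numbers unchanged.

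The fit with the replicate number as a block gave 1 member for the interaction of layer with maxillary against mandibular (2), where Pdgfa stood at 0.56 with an adjusted p of 0.0501, and it changed no other call of the members.

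Without 1 array the number called was 0 to 1 for maxillary against mandibular ectoderm, for E11.5 to E12.5 in mesenchyme and for the age steps in frontonasal against mandibular and frontonasal against maxillary tissue of either layer. It was 1 to 2 for maxillary against mandibular mesenchyme, frontonasal against mandibular ectoderm, the interaction of layer with maxillary against mandibular, the age step in maxillary against mandibular ectoderm and prominence in the three-factor model. It was 0 to 2 for E10.5 to E11.5 in mesenchyme, 1 to 3 for E11.5 to E12.5 in ectoderm and 1 to 3 for age in the three-factor model, where leaving out any mandibular E10.5 ectoderm array gave 1.

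Counts over all tested probe sets also moved. With only the groups compared, frontonasal against mandibular ectoderm gave 931 in place of 3348 and frontonasal against maxillary ectoderm 367 in place of 1337. Array weights gave 2583 in place of 1445 for maxillary against mandibular mesenchyme, 4108 in place of 2718 for frontonasal against maxillary mesenchyme, 1202 in place of 730 for maxillary against mandibular ectoderm and 1863 in place of 967 for the interaction of layer with maxillary against mandibular. Age in the three-factor model gave 11505 of 28944 probe sets without the variance filter, in place of 7212 of 14472 (49.8%). The larger count is thus a smaller share of the probe sets tested.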
